A study of Mus musculus with 9 samples.

Results

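Transcripts of nerve cells and of the glia around them were found in 2 of the 3 libraries of AML12 cells pretreated with Ang(1-7), a heptapeptide hormone made from angiotensin. The genes were chosen from the counts themselves: a gene was taken when it had 0 counts in each of the 3 libraries of cells given fatty acids alone and at least 20 counts in both Ang(1-7) 2 and Ang(1-7) 3. This rule took 71 of the 10259 genes in the table of both fatty acid groups. Levels in PA/OA 1 to 3 and in Ang(1-7) 2 and 3 are therefore a description of how the genes were picked, and no test on them is offered as support. Ang(1-7) 1 and the controls played no part in the choice.

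AML12 is a mouse hepatocyte line, grown here in medium with fetal bovine serum, and total RNA was sequenced from 9 samples in 3 groups of 3. Controls had no treatment, the PA/OA group was loaded for 24 h with PA at 0.2 mM and OA at 0.4 mM, taken to be palmitic and oleic acid, and the Ang(1-7) group had 100 nM Ang(1-7) from 30 min before the same fatty acids. Separate cultures are not mentioned in the labels, and p-values therefore measure the spread of these libraries alone, part or all of which may be technical. Listed counts came to 24759184 to 28704499 in the 6 fatty acid libraries. Ang(1-7) 2 stood apart from the rest, with 1029 genes of the table at 0 against 225 to 682 in the other 5 libraries, and a correlation of log2(CPM + 0.5) across genes of 0.944 to 0.956 with them, where the lowest among those 5 was 0.975. CPM here are counts scaled to the library's total of listed counts. Of 9 hepatocyte genes in the table, 7 had counts in each of the 6 libraries. The epithelial keratin gene Krt8 lay at 11129 to 12850 CPM, the lipoprotein gene Apob at 169 to 202 and the serum albumin gene Alb at 3.13 to 19.2.

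Neurons carry their signals along axons that are held open by neurofilaments and microtubules and supplied by kinesin motors, and they release transmitter from vesicles at synapses. Oligodendrocytes wrap central axons in myelin, and astrocytes, marked by the filament protein encoded by Gfap, clear transmitter from the synaptic cleft. In cells outside the nervous system many neuronal genes are held silent by the repressor REST, which binds a bipartite DNA element called RE1.

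The name nervous tissue was compared with marker lists that were chosen with earlier results of these data known, so the match is a description. Of the 71 genes, 27 (38.0%) were on 1 or more of 12 lists of neuronal and glial genes, while 1.10% of all genes in the table were (113 of 10259). Another 5 were on lists of other cell types, with C1qa and C1qb from the microglia and macrophage list, Col1a2 and Col3a1 from fibroblasts and Hbb-bs from red blood cells. The other 39 were on no list. The shares of 38.0% and 1.10% are of unlike sets, since the rule asks for 0 counts in PA/OA. Only 160 genes of the table met that, and 8 of the 89 that the rule left out were on nervous lists. Genes of 7 lists for brain regions and retina included 0 of the 71, although 19 of their 95 genes were in the table. Peripheral lists gave the same count, 0 for Schwann cells (2 of 7 genes in the table) and 0 for sensory ganglia (2 of 12). The glutamatergic synapse list (5 of 32) and the oligodendrocyte precursor list (1 of 8) also gave 0. The former summed to 13.2 and 17.5 CPM in Ang(1-7) 2 and 3, below its 19.8 to 25.4 in the other 4 libraries. Without the chosen genes, the neuronal cytoskeleton list summed to 1386 and 1514 CPM in Ang(1-7) 2 and 3, beside 1450 to 1575 in the other 4 libraries. The oligodendrocyte and myelin list had 135 and 158 beside 142 to 155. Both libraries were higher for the synaptic vesicle list (402 and 395 beside 340 to 358) and the astrocyte list (1624 and 1395 beside 1252 to 1364). The name is thus met by neuronal, oligodendrocyte and astrocyte genes among those the rule chose. It does not cover the blood, complement and collagen genes that the rule took with them.

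Promoter windows from RefSeq (build GRCm38.p6, 250 bases before to 50 after the start) were matched by symbol for 45 of the 71 genes, in 47 windows. Of these, 5 are shown as examples of genes that the rule chose, 1 each for the neuronal cytoskeleton, the synapse, astrocytes, oligodendrocytes and energy supply. The windows do not show whether AML12 cells transcribed these genes, which was not tested. Capitals mark exact matches on either strand. The motifs searched were the left arm of the RE1 element, with the letters TCAGCACC, and its right arm, with the letters GGACAGC. Besides these, the search took the box near the start of many tissue-specific genes that reads TATAAA, the box bound by the factor NF-Y that reads CCAAT, and the box bound by factors of the Sp family that reads GGGCGG. No motif holds another.
Tubb3, chr8:123411303-123411602, plus strand: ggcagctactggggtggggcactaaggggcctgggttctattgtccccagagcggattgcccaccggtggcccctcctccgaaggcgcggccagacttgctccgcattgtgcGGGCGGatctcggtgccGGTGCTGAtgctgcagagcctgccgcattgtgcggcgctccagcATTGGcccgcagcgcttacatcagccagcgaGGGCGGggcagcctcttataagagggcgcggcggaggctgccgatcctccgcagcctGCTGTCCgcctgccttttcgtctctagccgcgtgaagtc
Cplx1, chr5:108549978-108550277, minus strand: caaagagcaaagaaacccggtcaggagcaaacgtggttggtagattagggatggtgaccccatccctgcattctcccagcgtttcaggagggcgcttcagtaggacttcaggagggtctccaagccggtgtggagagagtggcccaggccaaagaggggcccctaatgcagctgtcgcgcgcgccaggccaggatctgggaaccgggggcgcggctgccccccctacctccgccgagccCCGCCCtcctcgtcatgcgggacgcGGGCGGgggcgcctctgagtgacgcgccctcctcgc
Gfap, chr11:102897151-102897450, minus strand: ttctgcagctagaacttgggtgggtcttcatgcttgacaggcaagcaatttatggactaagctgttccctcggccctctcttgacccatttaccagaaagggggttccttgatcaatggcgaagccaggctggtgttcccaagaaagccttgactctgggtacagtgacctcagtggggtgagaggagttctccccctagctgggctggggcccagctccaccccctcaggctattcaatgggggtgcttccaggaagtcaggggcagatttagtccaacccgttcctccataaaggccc
Ermn, chr2:58052815-58053114, minus strand: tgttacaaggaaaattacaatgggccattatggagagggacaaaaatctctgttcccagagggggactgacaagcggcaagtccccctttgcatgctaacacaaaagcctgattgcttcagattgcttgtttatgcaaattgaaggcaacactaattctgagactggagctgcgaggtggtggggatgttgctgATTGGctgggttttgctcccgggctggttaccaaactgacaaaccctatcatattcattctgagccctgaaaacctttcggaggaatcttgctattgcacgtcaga
Ckb, chr12:111672289-111672588, minus strand: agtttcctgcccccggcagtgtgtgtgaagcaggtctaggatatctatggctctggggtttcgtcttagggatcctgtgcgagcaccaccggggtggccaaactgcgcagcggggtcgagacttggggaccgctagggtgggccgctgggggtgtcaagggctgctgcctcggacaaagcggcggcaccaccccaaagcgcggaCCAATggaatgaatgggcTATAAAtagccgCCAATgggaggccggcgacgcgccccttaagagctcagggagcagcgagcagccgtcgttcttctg

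The left arm of RE1 was in 3 of the 47 windows (6.38%, against 1.65% of all 32851 windows of that length), those of Tubb3, Frrs1l and C1qb. The right arm was in 4 (8.51% against 6.56%). Tubb3, the neuronal beta-tubulin gene, and C1qb, a complement gene, had matches to both arms. In Tubb3 the matches began 121 bases before and 12 bases after the start, both on the opposite strand and not side by side. Each arm was searched for alone, with no rule on spacing or order. A window with both arms is therefore not shown to hold a whole RE1 element. A match to GGGCGG was more frequent among these windows (28 of 47, 59.6%) than among all windows (35.7%), CCAAT was in 42.6% against 37.4%, and TATAAA in 10.6% against 13.6%. Such matches describe letters in a window and say nothing of binding.

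**Figure D1:**
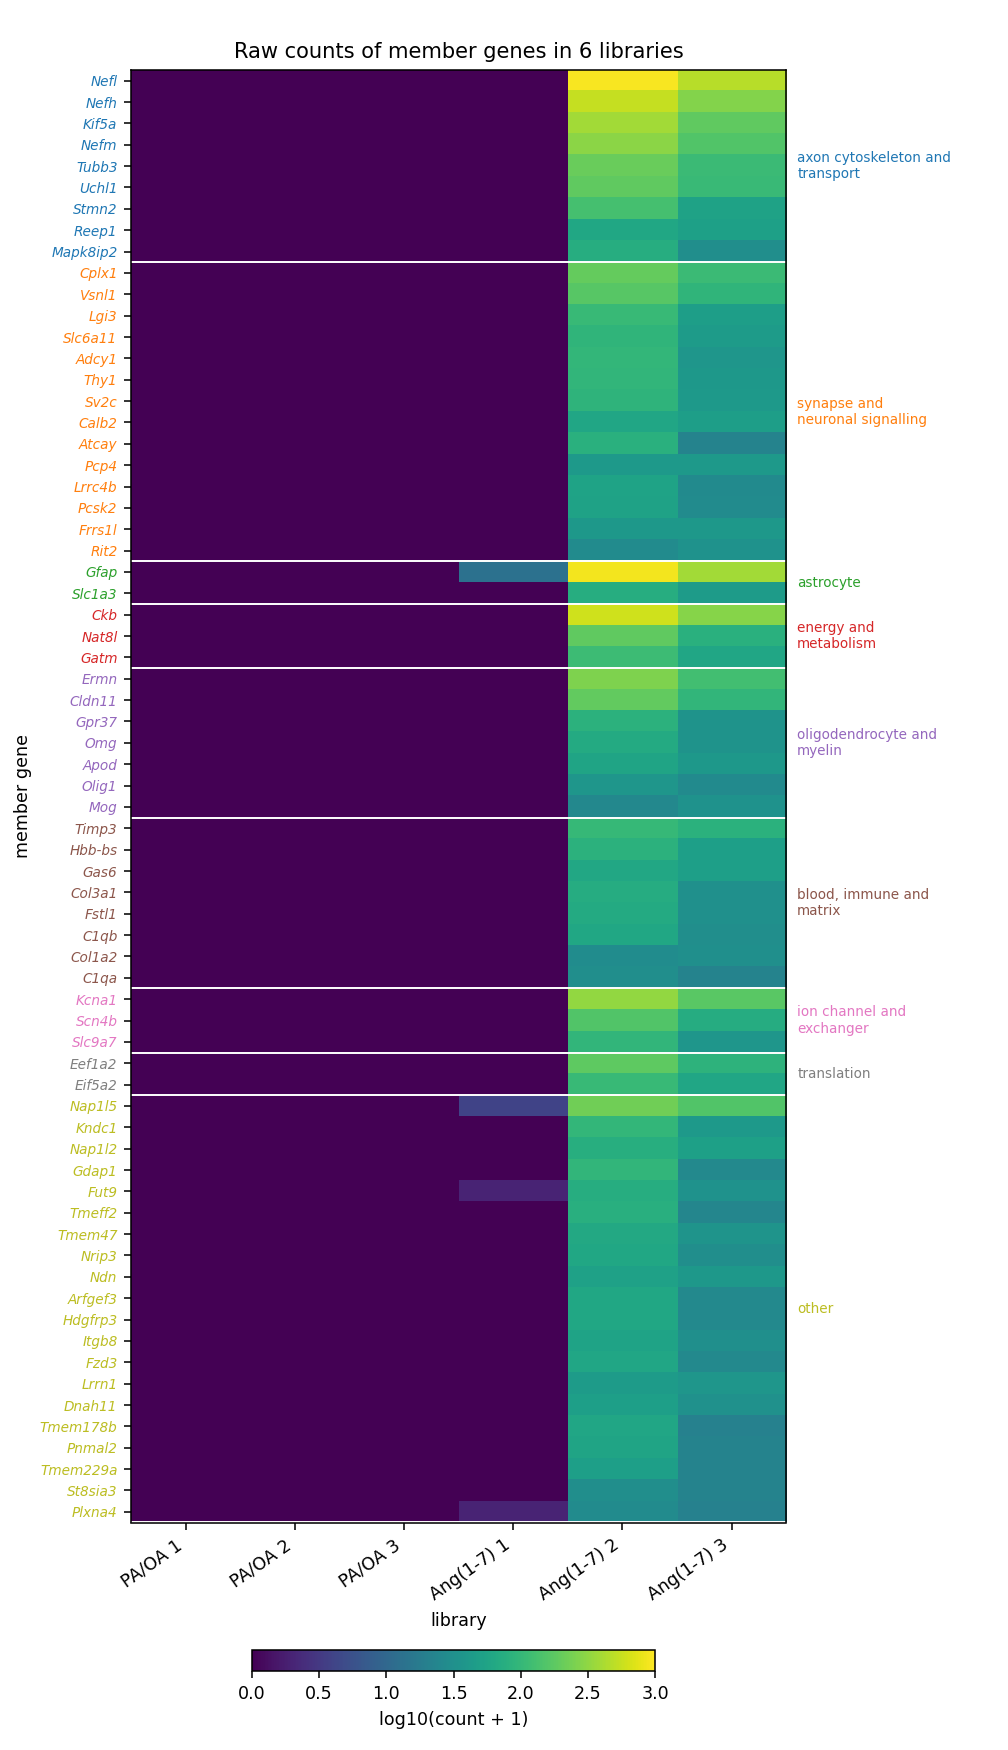
Raw counts of 68 of the 71 genes (rows, by role) in the 6 libraries of the table (columns), coloured by log10(count + 1). The 3 PA/OA columns are at 0 by the rule, Ang(1-7) 2 and 3 are filled from 20 to 923 counts, and Ang(1-7) 1 has a count in 4 of the genes drawn.

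Axon cytoskeleton genes were the most abundant. Nefl, the light chain of neurofilaments, had 0 counts in every PA/OA library and 0, 923 and 477 in Ang(1-7) 1 to 3. For Nefm, the medium chain, the 3 Ang(1-7) counts were 0, 301 and 154. The heavy chain gene Nefh had 0, 546 and 274. The rule set the PA/OA values and required counts in Ang(1-7) 2 and 3, so only the 0 in Ang(1-7) 1 was left free. These 3 genes made up 18.4% of all counts of the 71 genes in Ang(1-7) 2 and 3. Per length, using GENCODE M21 transcript lengths, the level of Nefl was 9.51 CPM per kb in Ang(1-7) 2 and 5.39 in Ang(1-7) 3, that of Nefh 4.76 and 2.62, and that of Nefm 3.15 and 1.76. The proportions within a library were close: Nefl stood at 3.02 times Nefm in Ang(1-7) 2 and 3.06 times in Ang(1-7) 3, and at 2.00 and 2.06 times Nefh.

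Transport and microtubule genes followed the same pattern at lower counts. Kif5a, a kinesin motor of neurons, had 0, 385 and 182 counts in Ang(1-7) 1 to 3, and Tubb3 had 0, 207 and 110. Uchl1, an abundant neuronal ubiquitin hydrolase, had 0, 183 and 107. Stmn2, a regulator of microtubules in growing axons, had 0, 131 and 52. In each of these genes Ang(1-7) 2 was the higher of the 2 filled libraries and Ang(1-7) 1 was at 0 beside the PA/OA libraries. Mapk8ip2, a scaffold of JNK signalling, had 72 and 29 counts in Ang(1-7) 2 and 3, and Reep1, which shapes the endoplasmic reticulum of axons, had 60 and 50.

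Genes of transmitter release and neuronal signalling numbered 15. Cplx1, a complexin that controls vesicle fusion, had 0, 194 and 109 counts in Ang(1-7) 1 to 3, and the vesicle glycoprotein gene Sv2c had 0, 88 and 40. Vsnl1, a neuronal calcium sensor, had 0, 163 and 90. Slc6a11, a GABA transporter of astrocytes, had 0, 92 and 43. Calcium-dependent signalling genes included Adcy1 (96 and 37 in Ang(1-7) 2 and 3), Calb2, which encodes calretinin (58 and 47), and Pcp4, a regulator of calmodulin (41 and 40). Thy1, a surface glycoprotein abundant on neurons, had 93 and 39. Pcsk2, a convertase of prohormones in dense-core granules, had 53 and 27. Every one of the 15 was at 0 in Ang(1-7) 1.

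Channel genes were 4 in number. Kcna1, a voltage-gated potassium channel of axons, had 0, 326 and 169 counts in Ang(1-7) 1 to 3, and Scn4b, an auxiliary subunit of sodium channels, had 0, 151 and 71. The exchanger Slc9a7 had 0, 94 and 37. Genes of neuronal energy supply were led by Ckb, the brain creatine kinase, with 0, 614 and 283 counts. Per length it was the highest of the 69 genes with a matched length, at 14.5 CPM per kb in Ang(1-7) 2 and 7.34 in Ang(1-7) 3. Gatm, of creatine synthesis, had 112 and 58 in these libraries, and Nat8l, which makes N-acetylaspartate, had 183 and 79. Eef1a2, the form of elongation factor 1 alpha found in neurons and muscle, had 0 counts in PA/OA 1 to 3 and in Ang(1-7) 1 and 178 and 87 in Ang(1-7) 2 and 3, while the closely related Eef1a1 had 1168891 to 1272791 in the former 4 libraries and 1553431 and 1196988 in the latter. Reads of such paralogs can be divided by the counting, so this level is uncertain. Eif5a2, a relative of the initiation factor eIF5A, had 103 and 58.

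Myelin genes numbered 7 and all were at 0 in Ang(1-7) 1. Ermn, a cytoskeletal protein of myelin sheaths, had 264 and 122 counts in Ang(1-7) 2 and 3, and Cldn11, the claudin that seals them, had 188 and 94. Gpr37, a receptor of oligodendrocytes, had 84 and 34, and Omg, a myelin glycoprotein, had 67 and 34. Olig1, a transcription factor of the lineage, had 37 and 26. Mog, a protein of the outer myelin surface, was an exception in order, with 24 counts in Ang(1-7) 2 and 33 in Ang(1-7) 3. Apod, a lipid carrier of glia, had 55 and 39.

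Astrocyte genes were Gfap and Slc1a3, a glutamate transporter. Gfap had 0 counts in each PA/OA library and 12, 888 and 378 in Ang(1-7) 1 to 3, that is 0.485, 30.9 and 14.4 CPM. Slc1a3 had 0, 72 and 43. Gfap was the gene with the most counts in Ang(1-7) 1, where its level was 1.57% of that in Ang(1-7) 2, while Nefl, with more counts in Ang(1-7) 2 and 3, had 0 there.

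Genes of blood, immune cells and matrix accounted for 6.98% of the counts. Hbb-bs, a beta-globin whose reads can be shared with near-identical copies, had 83 and 48 counts in Ang(1-7) 2 and 3. C1qa and C1qb, chains of complement C1q made by microglia and macrophages, had 29 and 21 and 61 and 29. Collagen genes Col3a1 (71 and 31) and Col1a2 (28 and 30) and the metalloproteinase inhibitor gene Timp3 (102 and 81) were also filled in the same 2 libraries. Over whole marker lists, red blood cell genes (3 of 11 in the table) summed to between 0.384 and 1.29 CPM with fatty acids alone, and to 0.364, 4.70 and 3.13 in Ang(1-7) 1 to 3, but these sums include Hbb-bs, which the rule chose. Without it the Ang(1-7) values were 0.364, 1.81 and 1.30, the last of them level with the 1.29 of PA/OA 3. Fibroblast and meningeal genes (5 of 11) summed to between 0.230 and 2.35 CPM and to 2.14, 7.25 and 6.23, and without the chosen Col1a2 and Col3a1 to 2.14, 3.80 and 3.90. Endothelial and mural genes (7 of 21) summed to between 4.07 and 4.65 CPM with fatty acids alone and to 5.41, 13.2 and 9.74 in Ang(1-7) 1 to 3. Microglia and macrophage genes (6 of 21) summed to between 351 and 421 CPM and to 419, 461 and 428. Besides C1qa and C1qb the other 4 had counts in all 6 libraries, and their sum in Ang(1-7) 3 (426 CPM) was close to those of PA/OA 3 (421) and Ang(1-7) 1 (419). Outside the genes the rule chose, then, the sum of the vessel list stood higher in both filled libraries than in the rest. The fibroblast list did so by less, and the blood and microglia lists hardly in Ang(1-7) 3. The vessel sum is in part set by the listing, since the table holds only transcripts above a mean of about 5.17 counts. In 3 of the 7 vessel genes both filled libraries were above the other 4. Of the 3 vessel genes with a mean of at least 5.17 in those 4 libraries, 0 showed this order. The part of these cell types in the result was not tested. In bulk RNA more cells of a type and more RNA per cell cannot be told apart.

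Among the other 20 genes, Nap1l5, of the nucleosome assembly family, was the most abundant, with 3, 225 and 154 counts in Ang(1-7) 1 to 3. Its relative Nap1l2 had 76 and 50 in Ang(1-7) 2 and 3, Ndn, which encodes necdin, a protein of postmitotic neurons, had 51 and 39, and Dnah11, a dynein of motile cilia, had 48 and 32. The remaining ones ranged from 27 to 95 counts in Ang(1-7) 2 and from 20 to 40 in Ang(1-7) 3.

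At the edge of the rule, Plxna4 and Tmem178b had exactly 20 counts in Ang(1-7) 3, and 6 genes, C1qa and St8sia3 among them, had 21 as their lower count. Just outside, 6 genes with 0 in PA/OA had 19 in Ang(1-7) 3, and their counts in Ang(1-7) 2 were 63 for Gpr158, 62 for Igfbp5, 58 for Cntnap2, 25 for Id4, 23 for Abcg1 and 22 for Spock2. Since S100b, an astrocyte marker, had 1 count in PA/OA 2, it fell outside too, with 0, 344 and 171 counts in Ang(1-7) 1 to 3. In all, 160 genes of the table had 0 in each PA/OA library, and of the 89 that the rule did not take, 71 had counts in both Ang(1-7) 2 and 3, 27 had counts in Ang(1-7) 1, and 3 had counts in neither Ang(1-7) 2 nor 3.

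Ang(1-7) 1, which received the same labelled treatment, was a library that the rule did not use. In it 66 of the 71 genes were at 0. Of the 89 genes with 0 in PA/OA that the rule did not take, 27 had counts in Ang(1-7) 1. Among the 71, the 5 with counts there included Gfap with 12, Nap1l5 with 3, and Fut9 and Plxna4 with 1 each. The 18 counts of these 5 made 0.727 CPM (exact 95% Poisson interval 0.431 to 1.15), whereas the 71 genes summed to 336 CPM (329 to 342) in Ang(1-7) 2 and 187 CPM (182 to 192) in Ang(1-7) 3. As shares of all listed counts these came to 0.0336% and 0.0187%. A count of 0 allows up to 3 counts, or 0.115 to 0.121 CPM in the PA/OA libraries and Ang(1-7) 1, so a gene at that level was not detectable there. Intervals and limits cover counting error only, since reads were counted with no molecular identifier to tell molecules from copies. Counts in Ang(1-7) 2 and 3 were required by the rule. Only the level in Ang(1-7) 1 was left free, and almost none of these transcripts were counted there.

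Control libraries, also outside the rule, could be read for the 9 genes of highest mean count, which appear in the table of Ang(1-7) and control; control counts of the other 62 were not analysed here. Of the 9, 7 (Gfap, Ckb, Nefh, Kcna1, Nefm, Ermn and Nap1l5) had 0 counts in each of controls 1 to 3. Nefl had 0, 4 and 0, and Kif5a had 0, 0 and 24. The 24 counts of Kif5a in control 3 stood beside 385 and 182 in Ang(1-7) 2 and 3, and in every gene but Gfap and Nap1l5 the groups overlapped, because Ang(1-7) 1 was at 0. The lowest Ang(1-7) count of Gfap was 12 and that of Nap1l5 was 3, above the 0 of each control. In CPM the Ang(1-7) libraries lay above every control for 15.3% of the 6141 genes of that table, so 2 of 9 is not far from the background.

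**Figure D2:**
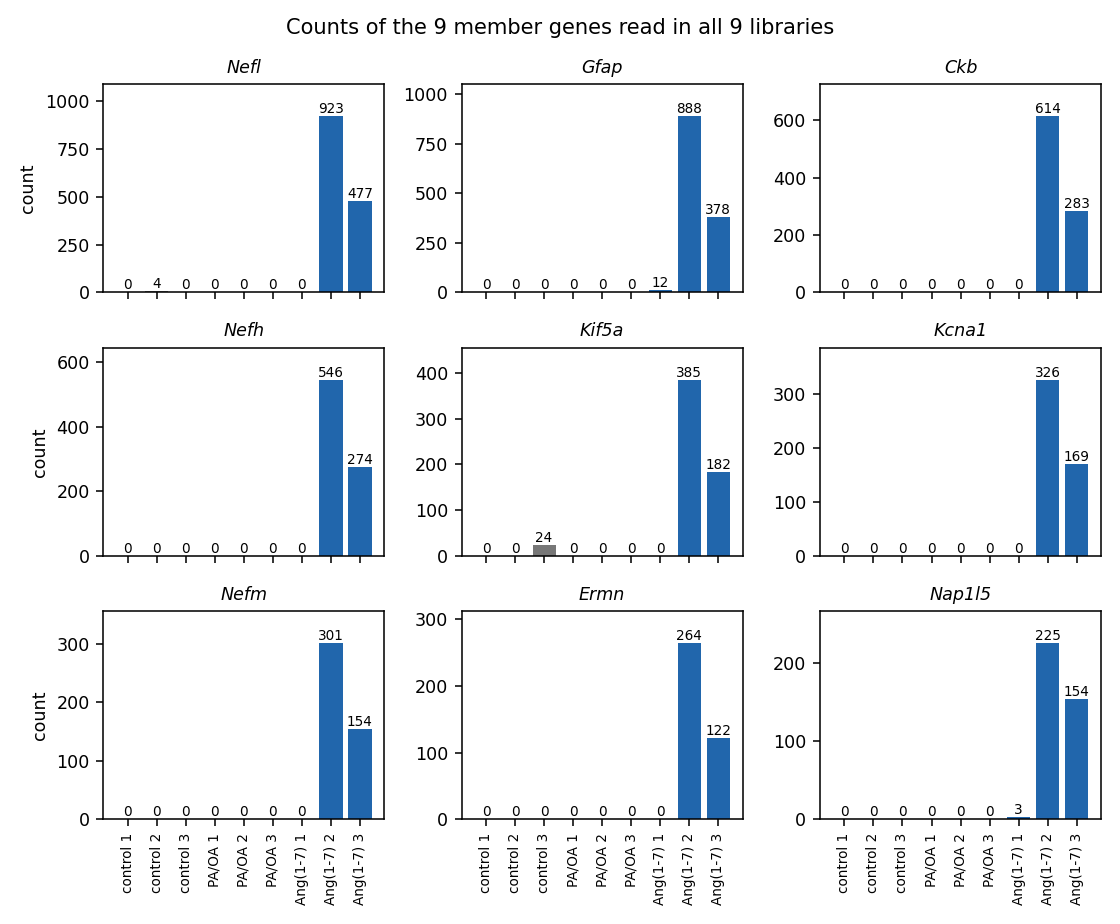
Raw counts (bars from 0, value above each bar) of the 9 genes that were read in all 9 libraries, with controls in grey, Ang(1-7) in blue and every PA/OA count at 0. Ang(1-7) 2 and 3 hold 122 to 923 counts, and the largest count in any other library is 24, for Kif5a in control 3.

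The 2 filled libraries held most of the genes in similar proportions. Ang(1-7) 2 took 66.3% (exact binomial 95% interval 65.5 to 67.1) of the counts of the 71 genes in both libraries, while it took 52.3% of all listed counts. In CPM the summed level was 1.79 times that in Ang(1-7) 3, and the median over the 71 genes was 1.80 (quartiles 1.35 and 2.11). The ratio was above 1 in 66 genes and below 1 in 5, and it ran from 0.663 for Mog to 3.47 for Atcay, the gene of caytaxin. Across the 5646 other genes with a mean above 100 counts, the median ratio was 0.886, and 4.91% of them exceeded the median of the 71. Those genes are not matched in level, since 62 of the 71 had a mean of at most 52.8 counts over the 6 libraries. Across the 71 genes the log2 CPM of the libraries correlated at r = 0.913, a description over genes that share 2 libraries and the minimum of 20 counts.

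**Figure D3:**
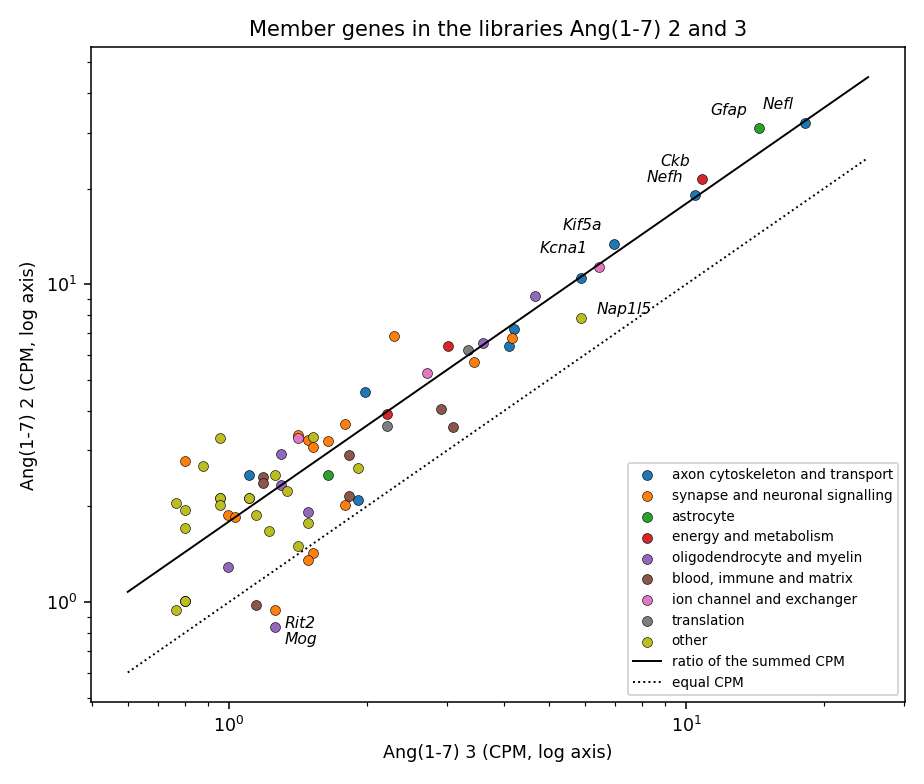
Level of each of the 71 genes in Ang(1-7) 3 (x, CPM) against Ang(1-7) 2 (y, CPM), both on log axes, coloured by role. The points follow the solid line of the summed ratio, 1.79, and 66 of 71 lie above the dotted line of equal CPM.

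For 55 of the 71 genes the exact binomial 95% interval of the gene's own share held the pooled share of 66.3%. It lay wholly above in 5, among them Gfap (70.1%, interval 67.5 to 72.7), Gdap1, Atcay and Tmeff2, and wholly below in 11, of which Nap1l5 had the most counts (59.4%, 54.2 to 64.4). The intervals take each read as a separate draw, and the rule used the counts of both libraries. Nothing is therefore read from the 16. Nefl (65.9%), Nefm (66.2%), Nefh (66.6%) and Kcna1 (65.9%) sat close to the pooled value. Among the 18 genes with the most counts, Nat8l had 1 of the 3 highest shares (69.8%), and the next lowest after Nap1l5 were those of Uchl1 (63.1%) and Cplx1 (64.0%). By role, the share was 66.2% (64.7 to 67.6) for the axon genes, 66.4% (64.3 to 68.4) for the synaptic and signalling genes, 66.8% (63.6 to 69.9) for channels and 65.3% (62.4 to 68.1) for the myelin genes. The blood, immune and matrix genes were lower at 61.1% (58.0 to 64.1). The 2 astrocyte genes gave 69.5% (67.0 to 71.9), a value set by Gfap, while Slc1a3 stood at 62.6% (53.1 to 71.5). Roles were assigned here from general knowledge with the values known, and the minimum of 20 counts in both libraries limits how far a scarce gene's share can stray.

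**Figure D4:**
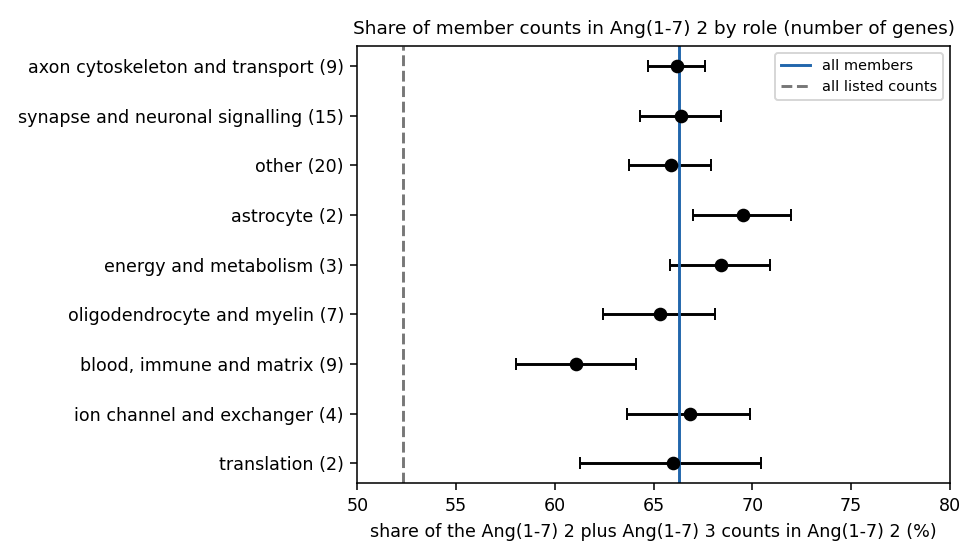
Share of the counts of Ang(1-7) 2 and 3 that fell in Ang(1-7) 2 (x, %) by role, with exact binomial 95% intervals and the number of genes in parentheses. The 9 roles lie between 61.1% and 69.5%, around the pooled 66.3% (solid line) and above the 52.3% of all listed counts (dashed line).

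Other nervous list genes in the table were 86, most of them also present in the hepatocyte line. Counts were above 0 in each PA/OA library for 55, and 21 were at 10 CPM or more in each, such as Glul, Cpe, Basp1 and Mbp. In 32 of the 86 (37.2%) both Ang(1-7) 2 and 3 were above the other 4 libraries in CPM, and in 3 (3.49%) both were below; over all 10188 genes outside the rule these shares were 8.65% and 10.9%. The first share is in part set by the listing, since the table holds only transcripts above a mean of about 5.17 counts and a gene scarce in the other 4 libraries is listed through Ang(1-7) 2 and 3. Such genes, with a mean below 5.17 in those 4, made up 20 of the 86 and 17 of the 32. Among the 66 with a mean at or above it, a split chosen after seeing the data, both were above in 15 (22.7%) and below in 3 (4.55%), beside 7.55% and 11.2% of 9887 genes. Syp, the vesicle protein synaptophysin, had 37, 21 and 35 counts in PA/OA and 43, 284 and 154 in Ang(1-7) 1 to 3. Stmn3, a relative of Stmn2, had 0, 0 and 12 and then 0, 230 and 89. Chga and Chgb, which encode granins of dense-core granules, had 0 to 14 counts in PA/OA and Ang(1-7) 1, and 139 and 73 (Chga) and 95 and 58 (Chgb) in Ang(1-7) 2 and 3. Mbp, a myelin gene also transcribed in other tissues, had 3346 to 3435 in PA/OA and 3108, 3139 and 3614 in Ang(1-7), so no separation of libraries was seen there. The genes named here were chosen after their values were seen.

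The design compares the Ang(1-7) group with PA/OA, and in that comparison almost none of the 71 genes entered the test. edgeR's filter asks for counts in as many libraries as the smaller group has, and only Gfap passed, by its 12 counts in Ang(1-7) 1. It was higher in 3 of 3 Ang(1-7) libraries than in any PA/OA library, yet the quasi-likelihood test of edgeR, adjusted by Benjamini-Hochberg, did not call it (unadjusted p = 0.0011, adjusted p = 0.965), so 0 of 1 tested was called beside 0% of all 9261 genes tested. DESeq2 gave Gfap an adjusted p of 0.0175, beside 0.0324% of all genes called. With no filter, 71 were tested and 0 were called, although each had an unadjusted p below 0.05, which the rule itself makes likely. Without Ang(1-7) 1, 16 of the 71 were called, all higher, among them Nefl, Nefh, Ckb and Gfap (adjusted p = 0.00578 each), beside 0.184% of all genes; without both Ang(1-7) 2 and 3, none entered the test. Since the rule used this contrast, nothing is read from these counts. Of the 86 other nervous list genes 65 were tested by edgeR and 0 were called, with 7 at an unadjusted p under 0.05 and 0 called by DESeq2. The share of all genes under that unadjusted p is not given here, so nothing is read from the 7. The median log2 change of the 65 was 0.16, against −0.01 over all genes tested. Against control, edgeR tested 2 of the 9 genes and called 0 beside 0.245% of all 6134 genes, with an unadjusted p of 0.00226 for Gfap and 0.0454 for Kif5a; without Ang(1-7) 1 it called 8 of 9 (0.407% of all genes), and without Ang(1-7) 2 it called 1 of 2 (5.22%). This comparison shares its Ang(1-7) libraries with the former one, and the 9 genes were chosen and listed through their counts in Ang(1-7) 2 and 3, so nothing is read from these counts either.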

How the data were processed

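Raw read counts by RefSeq transcript were deposited in 3 tables, each holding a pair of groups. The submitters' processing notes list bcl2fastq, HISAT2 2.2.5 and HTSeq 0.11.2, and they name a human genome build although the transcripts are mouse, so the build is unclear and no coordinates come from the tables. Nothing used here states the annotation release or how shared reads were counted. The tables list transcripts above a level: the lowest mean count was 5.17 in the table of both fatty acid groups and 59.5 in that of Ang(1-7) and control.

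Counts were summed by gene symbol. Genes were tested on whole tables in R 4.3.3 by the quasi-likelihood test of edgeR 4.0.16, after filterByExpr and TMM scaling, with p-values adjusted by Benjamini-Hochberg over all genes tested (threshold 0.05); the script was checked on simulated data. DESeq2 1.42.0, DESeq2 size factors, no filter, the replicate block and each library left out were alternatives. Intervals are exact (95%).

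The members and lists were chosen with earlier results of these data known. Named were the 12 genes with most counts, up to 4 per nervous and 2 per other list, Nefl and Gfap, those nearest the rule's edge, those with extreme shares and those with counts in Ang(1-7) 1; further genes named by role were chosen after their values were seen. Some genes that this rule names are not reported here.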

Additional observations from a re-analysis of the deposited data

How the results depend on the processing

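The number of genes taken by the rule was 124 with a minimum of 10 counts and 25 with a minimum of 50, of which 71 and 25 were among the 71; those with a count in Ang(1-7) 1 were then 14 and 3. Allowing up to 2 counts in each PA/OA library gave 77 genes, and curated transcripts alone gave 70, 69 of them shared. With the rule applied to the libraries left after each was dropped in turn, it took 71 to 140 genes, the highest without Ang(1-7) 3. Dropping a library only removes a condition, so the 71 had to be among them each time. The overlaps at 10 and 50 counts were likewise fixed in advance. The median CPM ratio of Ang(1-7) 2 to Ang(1-7) 3 was 1.98 with trimmed mean scaling, which moves all genes alike, and 1.76 to 1.84 with the other rules. Members called against PA/OA numbered 1 with DESeq2 and 0 to 16 with each library left out, the highest without Ang(1-7) 1; other nervous list genes numbered 0 to 1, the 1 being S100b (adjusted p = 0.00578). Against control the range was 0 to 8. Leaving out both Ang(1-7) 2 and 3, or the 71 genes, gave 0 calls; these alternatives and the dropping of libraries from the rule and from the fit against control were chosen after seeing the data. Adjusted p of Gfap over the alternatives ran from 0.00578 to 1.00.

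With a replicate block 0 members and 0 other nervous list genes were called. The numbers share only a label: deviations from the group means of same-numbered PA/OA and Ang(1-7) libraries correlated at −0.0936, −0.0753 and −0.0102 across genes of mean above 50 counts.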

Other observations

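Of the 7 vessel genes in the table, all outside the rule, 3 were above the other 4 libraries in both Ang(1-7) 2 and 3. Rgs5, a pericyte gene, had 0, 107 and 66 counts in Ang(1-7) 1 to 3, where PA/OA 1 to 3 had 8, 0 and 0. Cldn5, the claudin of the blood-brain barrier, had 0 in PA/OA and 0, 30 and 15 in Ang(1-7), and Itm2a had 0 and then 0, 19 and 17. All 3 are in the table through their counts in Ang(1-7) 2 and 3, since their mean in the other 4 libraries was below its lowest mean. The other vessel genes did not show this order, including the 3 whose mean in those 4 libraries reached the lowest listed mean. Lists of lymphocyte, striated muscle, lung, skin and fat genes, with 1 to 3 genes each in the table, did not show this order: muscle genes summed to 2.63, 0.941 and 1.91 CPM in Ang(1-7) 1 to 3 and to between 0.768 and 2.31 CPM with fatty acids alone, and lung genes were at 0 in Ang(1-7) 2.

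The 71 genes had few annotated isoforms. In RefSeq (GRCm38.p6), 55 of them (77.5%) had 1 annotated transcript, against 31.5% of the 10066 other genes of the table that were matched. Of the 324 genes on the nervous lists, the 113 in the table had a median of 1 annotated transcript and the other 211 a median of 5. The tables count reads per transcript, and how reads shared by isoforms were treated is not stated in the labels; its part in which nervous genes are listed was not tested.

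By position, 11 of the 71 genes (15.5%) were on chromosome 6, where 4.76% of all genes of the table lie. These 11 included Kcna1, Nap1l5, Slc6a11 and Gpr37. Chromosome 6 is named because it held the most of the 71 genes among 19 chromosomes with any. A high share is thus partly set by that choice, and no enrichment is read from it.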
